A study of Mus musculus with 16 samples.

Results

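The genes described here are the amino acid transporter genes of the mouse, taken as every gene whose symbol belongs to the solute carrier families Slc1, Slc3, Slc6, Slc7, Slc36, Slc38 or Slc43, and they were followed through a time course of Erk stimulation in embryonic stem cells. The RefSeq table held 61 such symbols, and 59 of them had a named probe on the array, of 20972 named genes in all. Slc6a5 and Slc6a16 had none. Of the 59 genes, 42 were tested, of 15660 tested genes in all, because their probe cleared the background on both replicates of some group. The rule used symbols only and no measured value, but the members were chosen with earlier results of these data known. A few members by this rule carry other substrates, among them Slc6a8 (creatine), Slc6a6 (taurine), Slc43a3 (purine nucleobases) and the monoamine carriers Slc6a2, Slc6a3 and Slc6a4.

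The cells were E14tg2a mouse embryonic stem cells, a line from the early embryo, with a c-Raf fusion protein that tamoxifen switches on. All groups were cultured on gelatin in medium with 10% serum, added non-essential amino acids, L-glutamine and 1000 units/ml LIF, a cytokine that supports self-renewal. The DMSO group received vehicle, and the 0h group received 250 nM PD173074, an inhibitor of FGF receptors, for 24 hours without induction. The other 6 groups had the same inhibitor treatment and then 250 nM 4OHT (4-hydroxytamoxifen) for 30m, 1h, 2h, 4h, 8h or 24h. Each group had 2 replicates on 1-colour Agilent arrays, and whether the replicates were separate cultures is not given in the sources used here, so that the p-values rest on a spread that may be technical. Longer 4OHT also meant longer culture after the pre-treatment, and the 2 cannot be told apart. Cells with 4OHT but without the fusion, and the promoter that drives the fusion, were not analysed here.

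Cells take up amino acids through carriers that differ in substrate and in driving force. Carriers of the Slc1, Slc6 and Slc38 families are mostly coupled to sodium and can concentrate their substrates, Slc36 carriers are coupled to protons, and most Slc7 proteins are light chains that reach the membrane with a heavy chain, Slc3a2 or Slc3a1, and exchange one amino acid for another. Slc43 carriers let large neutral amino acids pass down their gradient. Leucine, arginine and glutamine brought in this way are sensed by mTORC1, and a lack of amino acids is known to raise the transcription factor ATF4, which in turn acts on genes of several carriers.

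Promoters of 3 carriers are shown because Slc7a7 and Slc43a1 are the members with the largest range and with the most calls over the time course, and because Slc7a11 is a textbook target of ATF4. Each is the stretch of 250 bases before the annotated start (RefSeq, GRCm38.p6), read 5′ to 3′ on the gene's strand. Slc7a7 is given from the most upstream of its annotated starts (chr14:54417945-54418194, minus strand), and its capitals mark a match to the ATF4-C/EBP composite element TGATGNAA, 141 to 134 bases before the start. Of the 5 RefSeq starts of Slc7a7, 1 other stretch holds a composite match and 3 hold none. Slc43a1 (chr2:84840073-84840322, plus strand) has capitals on an E-box, CACGTG, 64 to 59 bases before the start, and on a match to TGACNNNGC, an Nrf2 element, on the opposite strand 16 to 8 bases before it. Slc7a11 (chr3:50443614-50443863, minus strand) has capitals on 2 composite matches, 66 to 59 and, on the opposite strand, 47 to 40 bases before the start.
Slc7a7: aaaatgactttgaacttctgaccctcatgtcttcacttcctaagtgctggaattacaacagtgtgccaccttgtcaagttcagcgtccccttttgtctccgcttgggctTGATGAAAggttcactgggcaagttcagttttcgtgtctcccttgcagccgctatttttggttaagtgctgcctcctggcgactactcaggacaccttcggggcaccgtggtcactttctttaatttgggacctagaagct
Slc43a1: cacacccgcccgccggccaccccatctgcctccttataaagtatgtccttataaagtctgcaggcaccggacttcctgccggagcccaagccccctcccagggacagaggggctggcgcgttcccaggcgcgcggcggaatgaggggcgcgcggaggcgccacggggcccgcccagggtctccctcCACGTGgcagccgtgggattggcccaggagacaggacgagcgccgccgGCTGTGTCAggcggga
Slc7a11: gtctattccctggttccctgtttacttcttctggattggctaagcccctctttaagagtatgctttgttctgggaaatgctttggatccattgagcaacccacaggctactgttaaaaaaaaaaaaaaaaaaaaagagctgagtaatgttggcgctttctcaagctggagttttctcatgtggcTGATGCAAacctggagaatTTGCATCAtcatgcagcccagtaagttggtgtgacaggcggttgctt

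RefSeq gave 61 promoters for 41 of the 59 members. The composite element, searched on both strands, was in 4 of these 61 promoters (6.56%), those of Slc7a7, Slc7a11 and Slc6a21, against 3.45% of all 32851 promoters of the same length. The E-box was in 13.1% of member promoters against 6.02% of all, TGACNNNGC in 13.1% against 10.2%, the AP-1 element TGAGTCA in 6.56% against 4.46%, and the ETS element CCGGAAGT in 0 of 61 against 2.88%. The composite and Nrf2 patterns allow any base at N, and no site of either overlapped another in the 3 stretches shown. These matches describe the letters only.

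The arrays were checked before the results. The share of spots well above background was 54.9% to 67.2%, the 75th percentile of an array lay between 441 and 653, and 0 spots were saturated. The deposited value table and the deposited scanner files disagree on which array belongs to which sample for 8 of the 16 arrays. The value table was followed, under which same-group arrays correlated at 0.982 to 0.990 across genes, against a lowest value of 0.948 under the other record. Members called at 24h against 0h would number 1 in place of 18 under the other record, so that every result below rests on this choice. Of the embryonic stem cell markers, 12 of 12 were well above background on all 16 arrays. Of the 6 fibroblast markers, Col1a1, Col1a2, Col3a1 and Dcn were above it on 10 to 16 arrays each, and Lum and Postn on 0. Of 12 genes that Erk is known to drive, 10 rose at 24h against 0h (median 3.87), Spry4 by 4.94 ± 0.38, Dusp6 by 3.97 ± 0.59 and Egr1 by 3.77 ± 0.57.

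Values below are log2 of the processed signal minus that array's 75th percentile, and changes are differences of these with the standard error of the limma fit, 2 arrays in each group. A gene was called where the Benjamini-Hochberg adjusted p over all 15660 tested genes was under 0.05. Replicates 1 and 2 lay on separate slides that each carried all 8 groups, and values with this slide as a replicate block are given where they change a call. Levels are comparable between arrays for a gene, not between genes.

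Among the amino acid carriers 0 were called up to 2h of stimulation and 18 of 42 at 24h. At 30m and 1h against 0h, 0 of 42 members were called, where 0% of all tested genes were called at both times. At an unadjusted p under 0.05 there were 0 members at 30m and 1 at 1h. At 2h 0 were called, with 0.115% of all genes called and 1 member at an unadjusted p under 0.05. With the replicate block 0 members were called at these times as well, against 0% of all genes at 30m, 0.0192% at 1h and 0.485% at 2h. At 4h 4 members were lower and 0 higher (9.52% of members, against 3.18% of all genes, 1.74% lower and 1.44% higher). With the replicate block 4 were higher and 5 lower, against 16% of all genes. At 8h 1 was higher and 3 were lower (9.52% of members against 6.74% of all genes, 3.13% higher and 3.61% lower), and with the block 7 and 9, against 21% of all genes. The count at 4h was 1 without 0h replicate 1, 0h replicate 2 or 4h replicate 1, 2 without 4h replicate 2, and 0 with each array scaled to its median in place of the 75th percentile. The count at 8h was 1 without 0h replicate 1 or 8h replicate 1, 7 without 8h replicate 2, and 1 with array medians.

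At 24h against 0h 10 members were higher and 8 lower, 42.9% of the 42, where 23.7% of all tested genes were called, 10.7% higher and 13% lower. Among the 30 members well above background on all 16 arrays, 9 were higher and 6 lower. The median change of the members was 0.15, against -0.01 for all tested genes. With the replicate block 14 were higher and 9 lower, against 39.5% of all genes. The count was 8 without 0h replicate 1, 8 without 0h replicate 2, 8 without 24h replicate 1, and 7 with array medians. These 7 were Slc7a7, Slc38a8 and Slc43a2, which were higher, and Slc7a9, Slc1a1, Slc6a7 and Slc1a6, which were lower. In the other comparisons array medians left only the calls of Slc43a1 at 8h against 0h and of Slc43a1 and Slc38a8 at 24h against 8h and against DMSO, so that all other member calls given below were lost with that scaling.

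**Figure D1:**
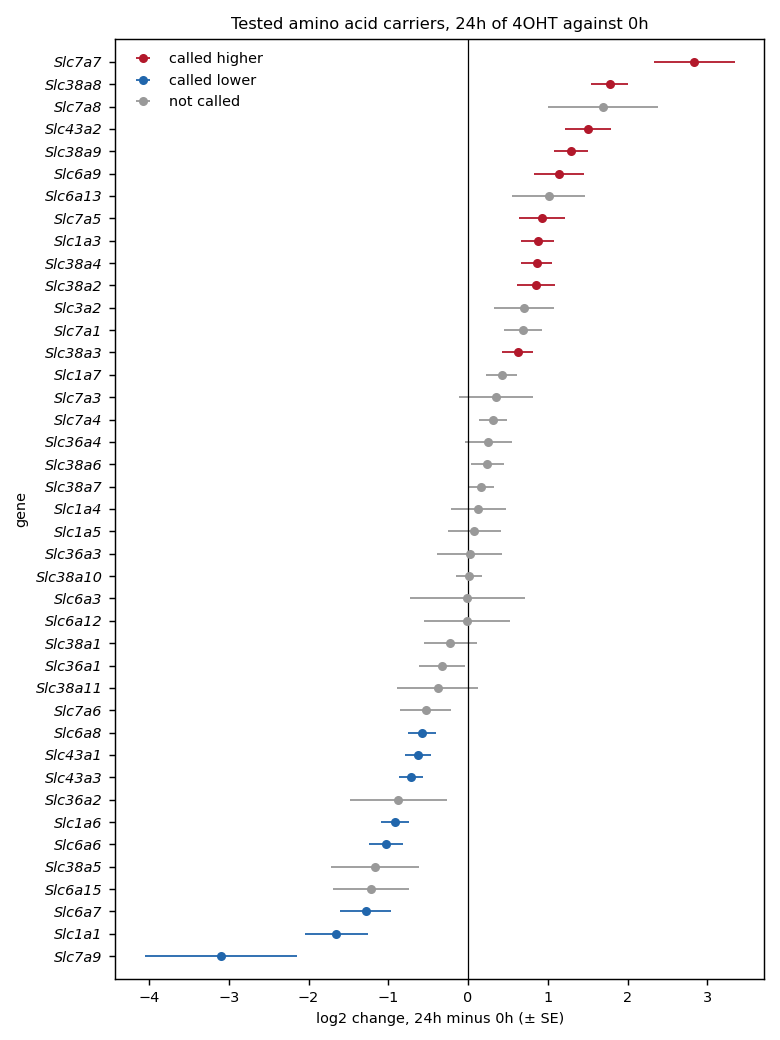
Log2 change of 41 of the 42 tested carriers at 24h of 4OHT against 0h, each point a fitted difference between 2 arrays and 2 arrays with its SE, red where called higher, blue where called lower and grey where not called. Slc7a7 lies furthest to the right at 2.84, and Slc7a9 furthest to the left, where the 24h arrays were not well above background, so that its fitted value is no measured fold and only the bound in the text holds. Slc36a2 and Slc36a4 also had 0 of 2 arrays well above background at 24h, so their points are no measured folds either. Slc7a8 and Slc6a13 had 1 of 2 at 0h, and Slc6a7, Slc38a5, Slc38a11 and Slc6a3 had 1 of 2 at 24h.

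Light chains of the heteromeric exchangers moved in opposite directions. Slc7a7, the light chain of system y+L, trades cationic amino acids such as arginine for neutral ones with sodium, and its loss causes lysinuric protein intolerance. Its replicate 1 and replicate 2 arrays read 5.66 and 5.57 in DMSO, 4.02 and 3.12 at 0h, 4.02 and 3.12 at 30m, 3.73 and 2.79 at 1h, 4.39 and 3.27 at 2h, 5.17 and 4.29 at 4h, 6.17 and 5.60 at 8h and 6.62 and 6.20 at 24h. Both arrays from 4h on lay above both arrays at 0h, and 24h stood above DMSO as well. Slc7a7 rose by 2.31 ± 0.51 (adjusted p = 0.0265) at 8h and rose by 2.84 ± 0.51 (adjusted p = 0.00311) at 24h, against 0h. That is 4.97-fold at 8h and 7.15-fold at 24h. The change at 4h was 1.16 ± 0.51 (adjusted p = 0.254, against 0.011 with the replicate block). The change at 0h against DMSO had the opposite sign, at -2.04 ± 0.51 (adjusted p = 0.0579, against 0.000788 with the replicate block). It was not called without the block. It also uses the same 0h arrays as the changes above, so that the opposite signs are not independent. The 24h call passed with each of the 4 arrays left out in turn, and the 8h call did not without 0h replicate 1 (2.76, adjusted p = 0.0731), 8h replicate 1 (2.02, adjusted p = 0.234) or 0h replicate 2 (1.86, adjusted p = 0.152).

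Slc7a5 (LAT1) exchanges large neutral amino acids such as leucine, and its heavy chain is Slc3a2 (CD98), shared with Slc7a7. Slc7a5 read 1.73 and 1.57 in DMSO, 1.64 and 1.23 at 0h, 1.42 and 1.05 at 30m, 1.39 and 1.29 at 1h, 1.59 and 1.36 at 2h, 2.19 and 1.76 at 4h, 2.80 and 2.04 at 8h and 2.66 and 2.07 at 24h. Both arrays at 4h, 8h and 24h were above both arrays at 0h, and the change at 24h against 0h was a rise by 0.93 ± 0.29 (adjusted p = 0.0403). At 8h it was 0.99 ± 0.29 (adjusted p = 0.0693, against 0.00314 with the replicate block). At 4h it was 0.54 ± 0.29 (adjusted p = 0.36, against 0.0431 with the replicate block). Its second probe had a change of 0.63 ± 0.29 at 24h, against 0.93 ± 0.29 for the first, and the 24h call was lost with array medians (adjusted p = 0.277), no filter on dim probes (adjusted p = 0.0546) or the mean of all probes (adjusted p = 0.0667). It was also lost without 0h replicate 1 (1.14, adjusted p = 0.0632), 24h replicate 1 (0.63, adjusted p = 0.276) or 0h replicate 2 (0.72, adjusted p = 0.218).

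Slc3a2 read 6.02 and 5.47 in DMSO, 5.64 and 5.18 at 0h, 5.52 and 5.22 at 30m, 5.65 and 5.29 at 1h, 5.81 and 5.05 at 2h, 6.02 and 5.35 at 4h, 6.46 and 5.65 at 8h and 6.38 and 5.84 at 24h. Replicate 1 was above replicate 2 in every group, by a gap that is part of the error. Within each slide the 8h and 24h arrays were above the 0h array, and the changes passed only with the replicate block: 0.65 ± 0.38 (adjusted p = 0.361, against 0.0104 with the replicate block) at 8h and 0.70 ± 0.38 (adjusted p = 0.222, against 0.00267 with the replicate block) at 24h.

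Slc7a9, the light chain that takes up cystine and dibasic amino acids in kidney and gut and is mutated in cystinuria, had the largest fitted fall of the members at 24h against 0h. Its arrays read -5.20 and -3.67 in DMSO, -3.37 and -2.25 at 0h, -3.57 and -2.40 at 30m, -4.08 and -2.73 at 1h, -4.28 and -2.70 at 2h, -4.39 and -3.25 at 4h, -5.30 and -2.69 at 8h and -6.39 and -5.42 at 24h. Replicate 2 was above replicate 1 in every group, and both 24h arrays were below both 0h arrays. Neither 24h array was well above background, so the difference is a bound: at least 3.74-fold lower at 24h than at 0h. Slc7a9 passed the filter only through the groups from 0h to 4h, so a fall at 24h against 0h was the only call open to it. The fitted fall had adjusted p = 0.0396 in the limma fit, which belongs to the values as read and not to the bound. It did not pass with any of the 4 arrays left out, with adjusted p = 0.0662 to 0.214, and passed with the replicate block (0.000121). Its change at 0h against DMSO was 1.63 ± 0.96 (adjusted p = 0.429, against 0.0116 with the replicate block), the opposite sign to that of Slc7a7, with DMSO replicate 1 not well above background. The changes of Slc7a9 at 8h against 0h and at 24h against 8h passed only with the block (adjusted p = 0.0313 and 0.00368), with 1 of 2 arrays well above background at 8h. The call at 24h against 0h was lost with no filter on dim probes (adjusted p = 0.0524) too. Slc3a1, its heavy chain, was well above background on 1 array and was not tested.

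Of the other light chains, Slc7a8 (LAT2) had a change at 24h of 1.69 ± 0.69 (adjusted p = 0.107, against 0.0131 with the replicate block), with its 2 slides at 2.64 and 0.74. The 0h array on slide 1 was not well above background, so that the slide 1 value and the mean are not measured folds. Slc7a8 passed the filter only through the 8h and 24h groups, so a rise against 0h was the only call open to it. Slc7a6, the close relative of Slc7a7 in system y+L, had -0.53 ± 0.32 (adjusted p = 0.282, against 0.0246 with the replicate block), opposite in sign to Slc7a7. Slc7a11 (xCT), which imports cystine for glutathione and whose promoter is shown above, was well above background on 0 of 16 arrays. It read -5.55 and -7.10 in DMSO, -7.15 and -7.48 at 0h, -6.96 and -6.94 at 30m, -6.79 and -6.70 at 1h, -6.95 and -7.20 at 2h, -6.92 and -6.29 at 4h, -6.97 and -7.33 at 8h and -4.97 and -6.07 at 24h, which give only upper bounds, and it was not tested.

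**Figure D2:**
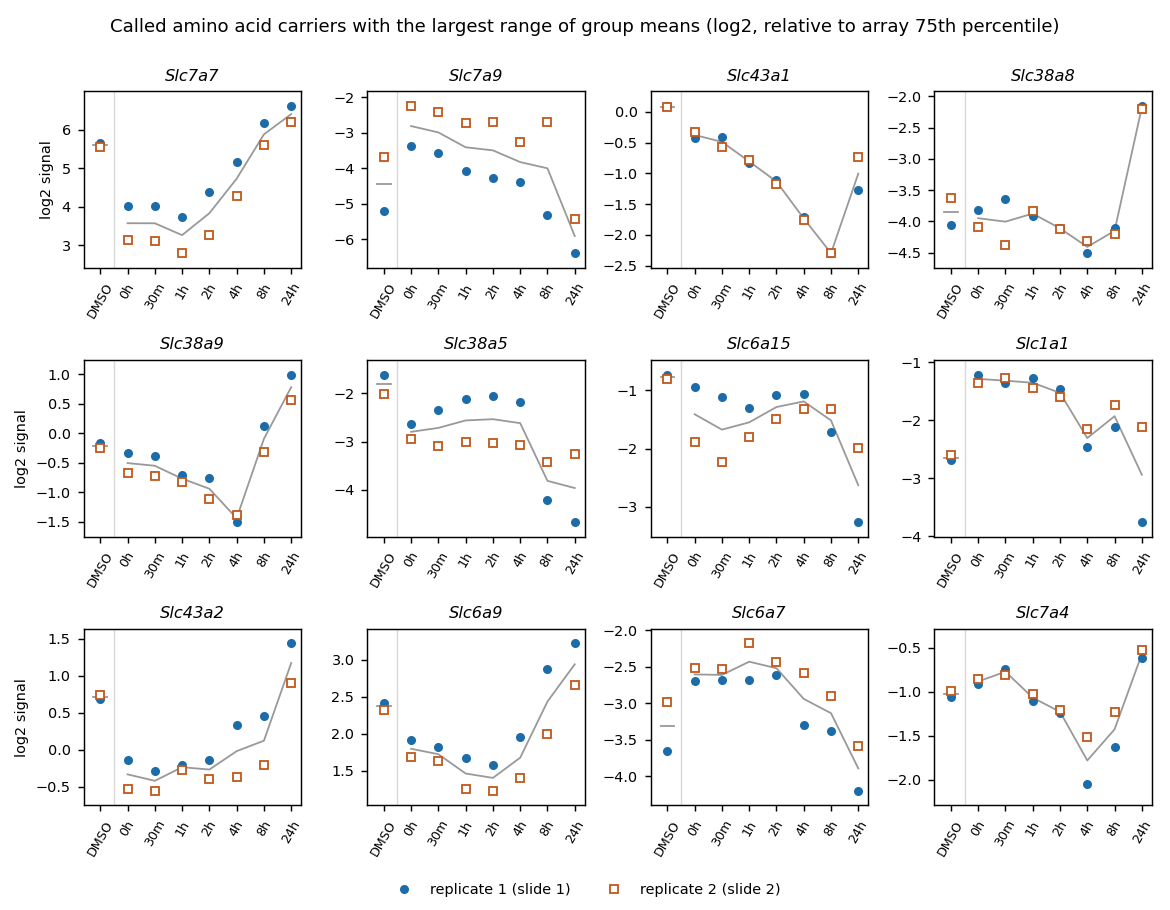
Log2 signal relative to the array's 75th percentile (y axis) in the 8 groups (x axis) for the 12 called carriers with the largest range of group means. Circles are replicate 1 on slide 1, squares replicate 2 on slide 2, and the grey line joins group means; Slc7a7 climbs from 4h on, Slc43a1 falls to 8h and is partly back at 24h, and Slc38a8 stands apart at 24h.

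Cationic amino acid transporters are uniporters for arginine, lysine and ornithine. Of the 3 that were tested 0 were called at 24h against 0h, where 23.7% of all genes were. Slc7a1 (CAT1), the widely expressed form, read 4.53 and 4.46 in DMSO, 4.34 and 4.19 at 0h, 4.37 and 4.15 at 30m, 4.51 and 4.09 at 1h, 4.56 and 4.32 at 2h, 5.15 and 4.53 at 4h, 5.07 and 4.63 at 8h and 5.07 and 4.84 at 24h. Both arrays at 4h, 8h and 24h were above both arrays at 0h. The changes were 0.57 ± 0.23 (adjusted p = 0.221, against 0.0211 with the replicate block) at 4h, 0.58 ± 0.23 (adjusted p = 0.175, against 0.015 with the replicate block) at 8h and 0.69 ± 0.23 (adjusted p = 0.057, against 0.0027 with the replicate block) at 24h.

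Slc7a3 (CAT3) read 5.85 and 5.38 in DMSO, 5.40 and 4.60 at 0h, 5.42 and 4.46 at 30m, 5.48 and 4.61 at 1h, 5.995 and 5.19 at 2h, 6.60 and 5.83 at 4h, 6.16 and 5.60 at 8h and 5.49 and 5.22 at 24h. Within each slide it was highest at 4h, and on both slides its 24h array lay below its DMSO array. The change at 4h against 0h was 1.21 ± 0.46 (adjusted p = 0.19, against 0.00294 with the replicate block), a 2.32-fold difference of the means, and at 24h against 8h it was -0.53 ± 0.46 (adjusted p = 0.569, against 0.0421 with the replicate block). At 8h against 0h it was 0.88 ± 0.46 (adjusted p = 0.307, against 0.0064 with the replicate block). Slc7a3 at 0h against DMSO had -0.62 ± 0.46 (adjusted p = 0.562, against 0.0314 with the replicate block).

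Slc7a4, a relative of these carriers whose transport activity is not established, read -1.06 and -0.99 in DMSO, -0.91 and -0.86 at 0h, -0.74 and -0.81 at 30m, -1.11 and -1.03 at 1h, -1.25 and -1.21 at 2h, -2.05 and -1.51 at 4h, -1.62 and -1.23 at 8h and -0.62 and -0.53 at 24h. Both 4h arrays were below both 0h arrays, and both 24h arrays were above both 8h arrays. It fell by 0.89 ± 0.18 (adjusted p = 0.0293) at 4h against 0h and rose by 0.85 ± 0.18 (adjusted p = 0.016) at 24h against 8h. The first call was lost without 0h replicate 1 (-0.92, adjusted p = 0.18), 4h replicate 1 (-0.63, adjusted p = 0.246) or 0h replicate 2 (-0.87, adjusted p = 0.125). The second was lost without 8h replicate 1 (0.66, adjusted p = 0.0859), 24h replicate 1 (0.90, adjusted p = 0.0804) or 24h replicate 2 (0.80, adjusted p = 0.0604). The call at 4h was also lost with normexp background correction (adjusted p = 0.0896), and that at 24h against 8h likewise with normexp background correction (adjusted p = 0.0626). At 8h against 0h the change of Slc7a4 was -0.54 ± 0.18 (adjusted p = 0.0986, against 0.0278 with the replicate block). Slc7a2 and Slc7a14 were above background on 0 arrays.

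The 3 Slc43 genes were all called at 24h against 0h, 1 higher and 2 lower (100%, against 23.7% of all genes). The 24h calls of Slc43a1 and Slc43a3 were lost with array medians. Slc43a1 was called in more comparisons than any other member, 5 of 9. Slc43a1 (LAT3) lets leucine, phenylalanine and other large neutral amino acids through the membrane. Its arrays read 0.093 and 0.075 in DMSO, -0.43 and -0.33 at 0h, -0.41 and -0.57 at 30m, -0.84 and -0.77 at 1h, -1.10 and -1.17 at 2h, -1.71 and -1.75 at 4h, -2.29 and -2.30 at 8h and -1.28 and -0.73 at 24h. From 0h to 8h the group means stepped down each time, replicates lay close together, and the 8h arrays were the lowest of all 16. Slc43a1 fell by 1.36 ± 0.16 (adjusted p = 0.00406) at 4h, 2.56-fold, and fell by 1.92 ± 0.16 (adjusted p = 0.000327) at 8h, 3.79-fold. It then rose by 1.29 ± 0.16 (adjusted p = 0.00165) from 8h to 24h and remained lower at 24h than at 0h, by 0.63 ± 0.16 (adjusted p = 0.017), and than in DMSO, by 1.09 ± 0.16 (adjusted p = 0.00312). All of these passed with each array left out, except that the call at 24h against 0h was lost without 0h replicate 1 (-0.68, adjusted p = 0.0571), 24h replicate 1 (-0.36, adjusted p = 0.123) or 0h replicate 2 (-0.58, adjusted p = 0.0939).

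Slc43a2 (LAT4), a second facilitative carrier of the same amino acids, went the other way. It read 0.68 and 0.74 in DMSO, -0.13 and -0.53 at 0h, -0.29 and -0.55 at 30m, -0.20 and -0.27 at 1h, -0.14 and -0.39 at 2h, 0.34 and -0.37 at 4h, 0.45 and -0.20 at 8h and 1.43 and 0.91 at 24h. Both 24h arrays were above every other array, and both DMSO arrays were above both 0h arrays. It rose by 1.501 ± 0.29 (adjusted p = 0.00437) at 24h against 0h, 2.83-fold, and had a change of 1.05 ± 0.29 (adjusted p = 0.0502, against 0.00392 with the replicate block) from 8h to 24h. At 0h against DMSO the change was -1.04 ± 0.29 (adjusted p = 0.0823, against 0.00641 with the replicate block). The 24h call passed with each array left out.

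Slc43a3, the nucleobase carrier of this family, fell by 0.79 ± 0.15 (adjusted p = 0.0259) at 4h, fell by 0.98 ± 0.15 (adjusted p = 0.00643) at 8h and fell by 0.71 ± 0.15 (adjusted p = 0.00708) at 24h, against 0h. Its arrays read -1.11 and -1.21 in DMSO, -0.82 and -0.95 at 0h, -1.53 and -1.81 at 4h, -1.84 and -1.89 at 8h and -1.57 and -1.63 at 24h, with both arrays of the later times below both at 0h. Each of these calls was lost with some array left out: at 4h with any of the 4 (adjusted p = 0.0785 to 0.204), Slc43a3 at 8h against 0h without 0h replicate 1 (-0.92, adjusted p = 0.0665) or 8h replicate 1 (-1.01, adjusted p = 0.0518), and Slc43a3 at 24h against 0h without 0h replicate 1 (-0.65, adjusted p = 0.0538). The 4h call was also lost with quantile normalization (adjusted p = 0.0545) or normexp background correction (adjusted p = 0.144), and the 24h call with normexp background correction (adjusted p = 0.0821).

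**Figure D3:**
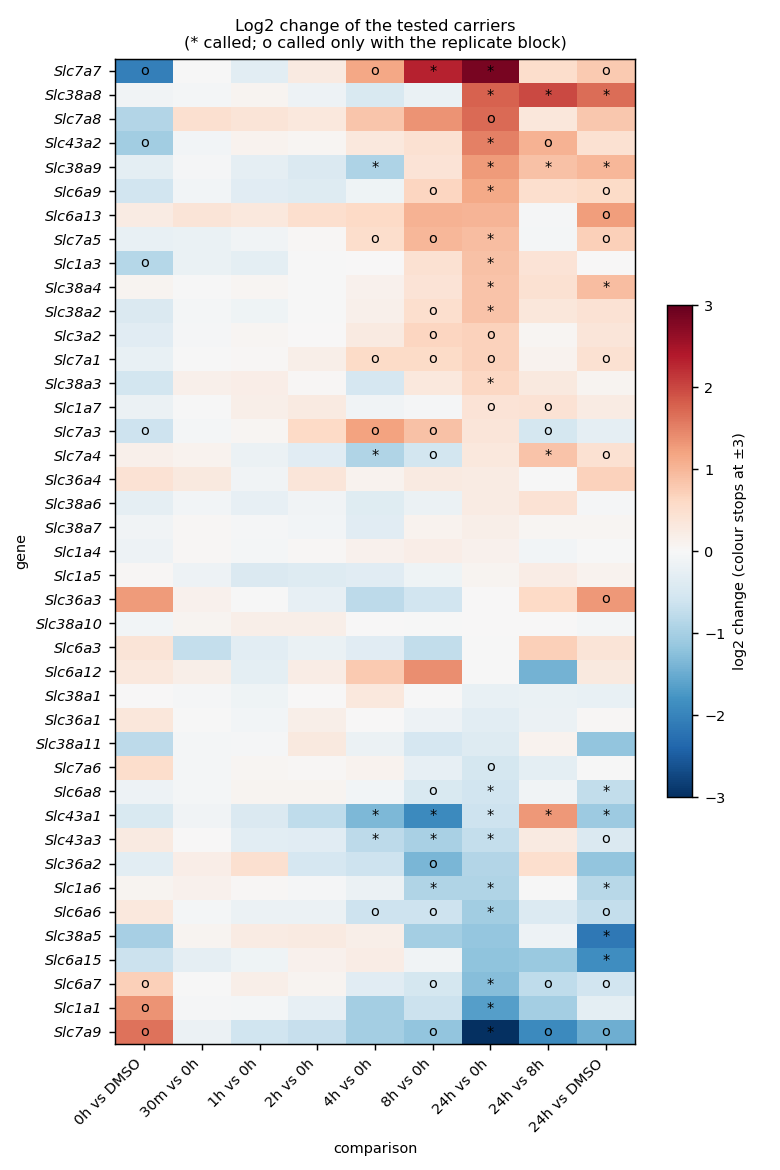
Log2 change of 41 of the 42 tested carriers (rows, ordered by the change at 24h against 0h) in the 9 comparisons (columns), red higher and blue lower, with * where called and o where called only with the replicate block. Colour stops at 3 in either direction. The columns for 30m, 1h and 2h hold no mark, and the column for 24h against 0h holds the most, 18 stars.

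Sodium-coupled neutral carriers of the Slc38 family had 5 of 11 tested members higher and 0 lower at 24h against 0h (45.5% higher, against 10.7% of all genes), with a family median of 0.24. Of these 5, Slc38a2, Slc38a3, Slc38a4 and Slc38a9 were not called with array medians. At 4h 1 was lower (Slc38a9), and at 8h 0 were called. Slc38a8, a glutamine carrier known best from retina and brain, read -4.06 and -3.63 in DMSO, -3.81 and -4.09 at 0h, -3.63 and -4.37 at 30m, -3.92 and -3.83 at 1h, -4.10 and -4.12 at 2h, -4.51 and -4.31 at 4h, -4.11 and -4.20 at 8h and -2.15 and -2.20 at 24h. Every array of the other 7 groups lay below both 24h arrays. At 24h Slc38a8 rose by 1.77 ± 0.23 (adjusted p = 0.000575) against 0h, rose by 1.98 ± 0.23 (adjusted p = 0.00122) against 8h and rose by 1.67 ± 0.23 (adjusted p = 0.00211) against DMSO, and the 3 calls passed with each array left out.

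Slc38a9, a lysosomal protein that senses arginine for mTORC1, read -0.16 and -0.25 in DMSO, -0.33 and -0.67 at 0h, -0.38 and -0.71 at 30m, -0.71 and -0.82 at 1h, -0.76 and -1.12 at 2h, -1.501 and -1.38 at 4h, 0.13 and -0.31 at 8h and 0.99 and 0.58 at 24h. It went down to 4h and then up, so that both 24h arrays were above all arrays of the other groups. It fell by 0.94 ± 0.21 (adjusted p = 0.0465) at 4h and rose by 1.29 ± 0.21 (adjusted p = 0.00214) at 24h against 0h, and rose by 0.88 ± 0.21 (adjusted p = 0.0315) from 8h to 24h and rose by 0.99 ± 0.21 (adjusted p = 0.0161) against DMSO. Its 2 other probes had changes of 1.19 ± 0.29 and 0.85 ± 0.28 at 24h against 0h. The 24h call against 0h passed with each array left out. The 4h call was lost with any of the 4 (adjusted p = 0.079 to 0.317) and with quantile normalization (adjusted p = 0.0567), normexp background correction (adjusted p = 0.112) or no filter on dim probes (adjusted p = 0.0738), the call against 8h without 24h replicate 1 (0.67, adjusted p = 0.236) or 8h replicate 2 (0.65, adjusted p = 0.171), and the call against DMSO without DMSO replicate 1 (1.04, adjusted p = 0.0841), 24h replicate 1 (0.78, adjusted p = 0.161) or DMSO replicate 2 (0.95, adjusted p = 0.0759).

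Slc38a2 (SNAT2), known to be raised when amino acids are scarce, read 5.99 and 5.87 in DMSO, 5.56 and 5.45 at 0h, 5.52 and 5.35 at 30m, 5.39 and 5.37 at 1h, 5.67 and 5.34 at 2h, 5.91 and 5.39 at 4h, 6.30 and 5.74 at 8h and 6.60 and 6.11 at 24h. Both 8h and both 24h arrays were above both 0h arrays. It rose by 0.85 ± 0.24 (adjusted p = 0.0273) at 24h, and at 8h the change was 0.52 ± 0.24 (adjusted p = 0.243, against 0.0362 with the replicate block). Slc38a4, an imprinted carrier of the same system, rose by 0.86 ± 0.20 (adjusted p = 0.0101) against 0h and rose by 0.93 ± 0.20 (adjusted p = 0.0145) against DMSO, with arrays at 2.45 and 2.36 in DMSO, 2.51 and 2.44 at 0h and 3.70 and 2.97 at 24h. Slc38a3, a glutamine carrier of liver and brain, rose by 0.62 ± 0.20 (adjusted p = 0.0445), with arrays at -2.04 and -2.07 in DMSO, -2.52 and -2.70 at 0h and -1.94 and -2.03 at 24h. The Slc38a2 call was lost without 0h replicate 1 (0.91, adjusted p = 0.0837), 24h replicate 1 (0.61, adjusted p = 0.207) or 0h replicate 2 (0.79, adjusted p = 0.123). For Slc38a4 the call against 0h was lost or its value moved without 24h replicate 1 (0.49, adjusted p = 0.0511) or 0h replicate 2 (0.82, adjusted p = 0.0601), and likewise against DMSO without DMSO replicate 1 (0.97, adjusted p = 0.0794), 24h replicate 1 (0.56, adjusted p = 0.0769) or DMSO replicate 2 (0.89, adjusted p = 0.0714). Slc38a3 did not pass with any of the 4 left out (adjusted p = 0.0925 to 0.201), nor with quantile normalization (adjusted p = 0.145), normexp background correction (adjusted p = 0.0537) or no filter on dim probes (adjusted p = 0.0612).

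Slc38a5 (SNAT5), a carrier of glutamine, serine and glycine, read -1.61 and -2.002 in DMSO, -2.64 and -2.95 at 0h, -2.34 and -3.09 at 30m, -2.12 and -2.998 at 1h, -2.05 and -3.02 at 2h, -2.17 and -3.06 at 4h, -4.21 and -3.41 at 8h and -4.67 and -3.26 at 24h. The 2 slides were far apart at 24h, and 1 of the 2 arrays there was not well above background. It fell by 2.16 ± 0.55 (adjusted p = 0.0317) at 24h against DMSO, while the change against 0h was -1.17 ± 0.55 (adjusted p = 0.16). The DMSO call was lost without DMSO replicate 1 (-1.96, adjusted p = 0.179), 24h replicate 1 (-1.45, adjusted p = 0.271) or DMSO replicate 2 (-2.35, adjusted p = 0.08). Slc38a1 (SNAT1), a widely used glutamine carrier, was not called in any of the 9 comparisons. Its arrays read 4.87 and 4.59 in DMSO, 4.98 and 4.48 at 0h, 4.89 and 4.51 at 30m, 4.78 and 4.41 at 1h, 5.12 and 4.37 at 2h, 5.41 and 4.68 at 4h, 4.94 and 4.49 at 8h and 4.69 and 4.33 at 24h, and the change at 24h was -0.22 ± 0.33 (adjusted p = 0.71). Slc38a11 was well above background on 1 of 2 arrays at 24h. Slc38a6, Slc38a7, Slc38a10 and Slc38a11 were not called, with changes at 24h against 0h of 0.24 ± 0.20, 0.17 ± 0.16, 0.011 ± 0.17 and -0.38 ± 0.51.

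**Figure D4:**
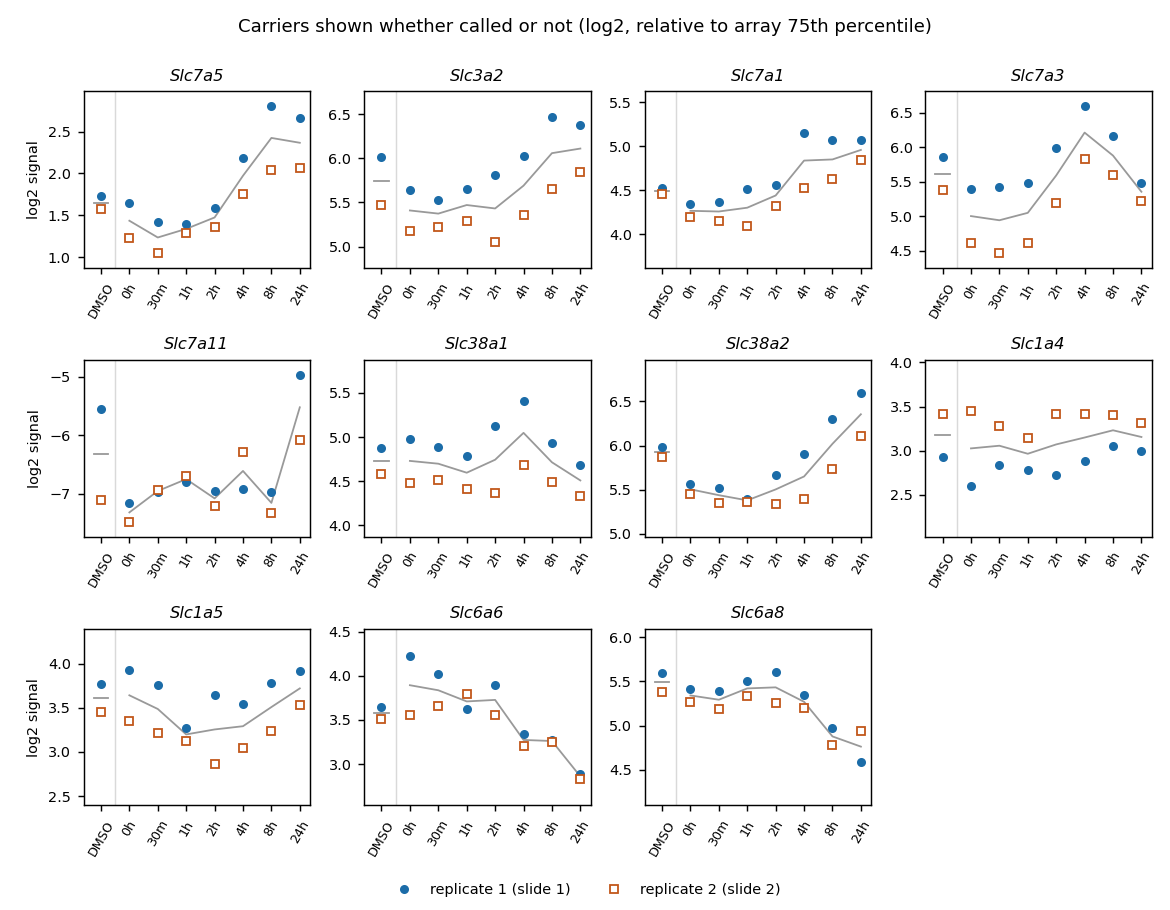
Log2 signal relative to the array's 75th percentile in the 8 groups for 11 carriers shown whether or not they were called, circles for replicate 1 on slide 1 and squares for replicate 2 on slide 2, with grey lines through group means. Slc7a5, Slc7a1, Slc3a2 and Slc38a2 lie higher at 24h than at 0h within each slide, and Slc6a6 and Slc6a8 lie lower. Without the replicate block Slc7a1, Slc7a3, Slc3a2, Slc1a4, Slc1a5 and Slc38a1 carry no call in any comparison, and Slc7a11 has only bounds.

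Glutamate and aspartate carriers of the Slc1 family split, with 1 of 4 tested members higher and 2 lower at 24h. That is 75% called, against 23.7% of all genes, 10.7% higher and 13% lower. Slc1a1 (EAAC1), the neuronal and epithelial form, read -2.69 and -2.60 in DMSO, -1.22 and -1.36 at 0h, -1.36 and -1.28 at 30m, -1.27 and -1.45 at 1h, -1.47 and -1.59 at 2h, -2.47 and -2.15 at 4h, -2.12 and -1.75 at 8h and -3.76 and -2.13 at 24h. Both 0h arrays were above both DMSO arrays, and from 4h on both arrays were below both at 0h, with the slides far apart at 24h. It fell by 1.65 ± 0.39 (adjusted p = 0.0126) at 24h against 0h, and the change at 0h against DMSO was 1.36 ± 0.39 (adjusted p = 0.0985, against 0.0386 with the replicate block). The 24h value was lost or moved without 0h replicate 1 (-1.58, adjusted p = 0.0692), 24h replicate 1 (-0.84, adjusted p = 0.0284) or 0h replicate 2 (-1.72, adjusted p = 0.052).

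Slc1a3 (GLAST), the glial form, rose by 0.87 ± 0.21 (adjusted p = 0.0136) at 24h against 0h after a change at 0h against DMSO of -0.85 ± 0.21 (adjusted p = 0.0572, against 0.0264 with the replicate block). Its values were 0.077 and -0.20 in DMSO, -0.74 and -1.08 at 0h and -0.029 and -0.054 at 24h, so that the 24h arrays were back in the region of DMSO. Slc1a6 (EAAT4), known from Purkinje cells, fell by 0.90 ± 0.17 (adjusted p = 0.0164) at 8h and fell by 0.91 ± 0.17 (adjusted p = 0.00407) at 24h against 0h, and fell by 0.83 ± 0.17 (adjusted p = 0.0139) against DMSO. Its values were -0.997 and -1.42 in DMSO, -1.11 and -1.14 at 0h, -2.04 and -2.01 at 8h and -2.28 and -1.79 at 24h. Without 1 array these calls were lost for Slc1a3 at 24h against 0h without 24h replicate 1 (0.86, adjusted p = 0.076) or 0h replicate 2 (0.70, adjusted p = 0.101), Slc1a6 at 8h against 0h without 0h replicate 1 (-0.89, adjusted p = 0.103), 8h replicate 1 (-0.89, adjusted p = 0.128) or 0h replicate 2 (-0.92, adjusted p = 0.0739), and Slc1a6 at 24h against DMSO without DMSO replicate 1 (-0.62, adjusted p = 0.12) or 24h replicate 1 (-0.58, adjusted p = 0.13), while Slc1a6 at 24h against 0h passed with each array left out. Slc1a7 had 0.42 ± 0.19 (adjusted p = 0.143, against 0.00843 with the replicate block) at 24h and 0.44 ± 0.19 (adjusted p = 0.187, against 0.012 with the replicate block) from 8h to 24h, and Slc1a2 was above background on 0 arrays.

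Exchangers of alanine, serine, cysteine and glutamine were not called in any comparison. Slc1a5 (ASCT2), through which many dividing cells take up glutamine, read 3.77 and 3.46 in DMSO, 3.93 and 3.35 at 0h, 3.76 and 3.21 at 30m, 3.27 and 3.12 at 1h, 3.65 and 2.86 at 2h, 3.54 and 3.04 at 4h, 3.78 and 3.24 at 8h and 3.91 and 3.53 at 24h. Its 24h and 0h arrays overlapped, replicate 1 was above replicate 2 in each, and the change at 24h was 0.078 ± 0.33 (adjusted p = 0.912). Slc1a4 (ASCT1), its relative, read 2.93 and 3.42 in DMSO, 2.60 and 3.45 at 0h, 2.84 and 3.28 at 30m, 2.79 and 3.14 at 1h, 2.73 and 3.41 at 2h, 2.88 and 3.41 at 4h, 3.05 and 3.41 at 8h and 2.998 and 3.31 at 24h, with the slides in the reverse order and a change at 24h of 0.13 ± 0.35 (adjusted p = 0.852). A p above the threshold does not show that these levels were equal.

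Of the Slc6 carriers of glycine, proline and neutral amino acids, 1 of 3 tested members was higher and 1 lower at 24h (66.7% called, against 23.7% of all genes). Slc6a9 (GlyT1), a sodium and chloride coupled glycine carrier, read 2.42 and 2.32 in DMSO, 1.91 and 1.69 at 0h, 1.82 and 1.63 at 30m, 1.67 and 1.26 at 1h, 1.58 and 1.23 at 2h, 1.95 and 1.40 at 4h, 2.87 and 2.002 at 8h and 3.22 and 2.66 at 24h. Both 24h arrays were above all arrays of the other groups except 8h replicate 1. It rose by 1.14 ± 0.31 (adjusted p = 0.0227) at 24h, its second probe had a change of 1.32 ± 0.35, and the change at 8h was 0.64 ± 0.31 (adjusted p = 0.263, against 0.028 with the replicate block). The call was lost without 0h replicate 1 (1.25, adjusted p = 0.0649), 24h replicate 1 (0.86, adjusted p = 0.176) or 0h replicate 2 (1.03, adjusted p = 0.118).

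Slc6a7, the brain proline carrier, read -3.65 and -2.98 in DMSO, -2.70 and -2.51 at 0h, -2.69 and -2.54 at 30m, -2.68 and -2.18 at 1h, -2.61 and -2.43 at 2h, -3.30 and -2.59 at 4h, -3.38 and -2.90 at 8h and -4.20 and -3.59 at 24h. Both 24h arrays were below every other array on their own slide, and 1 of the 2 was not well above background. It fell by 1.29 ± 0.32 (adjusted p = 0.0152), a call that was lost without 0h replicate 1 (-1.38, adjusted p = 0.0539), 24h replicate 1 (-0.98, adjusted p = 0.131) or 0h replicate 2 (-1.19, adjusted p = 0.0852). At 0h against DMSO the change was 0.71 ± 0.32 (adjusted p = 0.285, against 0.0181 with the replicate block), at 8h against 0h it was -0.53 ± 0.32 (adjusted p = 0.379, against 0.042 with the replicate block) and at 24h against 8h it was -0.76 ± 0.32 (adjusted p = 0.184, against 0.00926 with the replicate block). Slc6a15 (B0AT2), a carrier of branched-chain amino acids and proline, read -0.73 and -0.80 in DMSO, -0.94 and -1.88 at 0h, -1.12 and -2.23 at 30m, -1.30 and -1.80 at 1h, -1.08 and -1.497 at 2h, -1.06 and -1.32 at 4h, -1.71 and -1.32 at 8h and -3.26 and -1.998 at 24h. It fell by 1.86 ± 0.47 (adjusted p = 0.0314) against DMSO, and the change against 0h was -1.22 ± 0.47 (adjusted p = 0.0909), with the slides apart at both times. The DMSO call was lost without DMSO replicate 1 (-1.83, adjusted p = 0.15), 24h replicate 1 (-1.23, adjusted p = 0.268) or DMSO replicate 2 (-1.90, adjusted p = 0.101).

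Carriers of GABA, taurine, betaine and creatine had 2 of 5 tested members lower and 0 higher at 24h (40%, against 13% of all genes lower). Slc6a6, the taurine carrier, read 3.65 and 3.51 in DMSO, 4.23 and 3.56 at 0h, 4.01 and 3.66 at 30m, 3.63 and 3.79 at 1h, 3.90 and 3.56 at 2h, 3.34 and 3.21 at 4h, 3.28 and 3.25 at 8h and 2.88 and 2.84 at 24h. Both arrays at 4h, 8h and 24h were below both at 0h, and the replicates at 24h lay close together. It fell by 1.03 ± 0.22 (adjusted p = 0.00654) at 24h, and had changes of -0.62 ± 0.22 (adjusted p = 0.154, against 0.0401 with the replicate block) at 4h and -0.63 ± 0.22 (adjusted p = 0.112, against 0.0308 with the replicate block) at 8h. The 24h call passed with each array left out.

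Slc6a8, the creatine carrier, read 5.60 and 5.38 in DMSO, 5.42 and 5.27 at 0h, 5.40 and 5.19 at 30m, 5.51 and 5.34 at 1h, 5.61 and 5.26 at 2h, 5.34 and 5.20 at 4h, 4.97 and 4.78 at 8h and 4.59 and 4.94 at 24h. Its 8h and 24h arrays lay below all arrays of the other groups, and the change at 8h against 0h was -0.46 ± 0.17 (adjusted p = 0.147, against 0.0497 with the replicate block). It fell by 0.58 ± 0.17 (adjusted p = 0.0357) against 0h and fell by 0.73 ± 0.17 (adjusted p = 0.0243) against DMSO. The first call was lost without 0h replicate 1 (-0.504, adjusted p = 0.17), 24h replicate 1 (-0.40, adjusted p = 0.25) or 0h replicate 2 (-0.65, adjusted p = 0.0825), and with no filter on dim probes (adjusted p = 0.0521). The second was lost without DMSO replicate 1 (-0.62, adjusted p = 0.173), 24h replicate 1 (-0.55, adjusted p = 0.22) or DMSO replicate 2 (-0.84, adjusted p = 0.0542). The GABA carrier Slc6a13 had a change at 24h against 0h of 1.01 ± 0.46 (adjusted p = 0.149), with 1 of 2 arrays well above background at 0h. It passed the filter only through groups with 4OHT, so a rise against 0h was the only call open to it. The betaine carrier Slc6a12 was at -0.014 ± 0.54 and the dopamine carrier Slc6a3, above background on 1 of 2 arrays at 24h, at -0.0081 ± 0.73.

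The 4 proton-coupled Slc36 carriers, of which Slc36a1 is a lysosomal exporter of small amino acids, were not called in any comparison. At 24h against 0h Slc36a1 was at -0.32 ± 0.29, Slc36a3 at 0.019 ± 0.41, while Slc36a4 was well above background on 1 of 2 arrays at 0h and 0 of 2 at 24h. Slc36a2 at 8h had -1.37 ± 0.61 (adjusted p = 0.223, against 0.046 with the replicate block), with 1 of 2 arrays well above background at each time.

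The 17 members that were not tested were those with little or no signal. On 0 of 16 arrays were Slc1a2, Slc6a2, Slc6a4, Slc6a14, Slc6a17, Slc6a19, Slc6a21, Slc7a2, Slc7a10, Slc7a11, Slc7a13, Slc7a14 and Slc7a15 well above background, 13 genes in all. The other 4, Slc3a1, Slc6a11, Slc6a18 and Slc7a12, were above it on 1 or 2 arrays. Several of these are known from brain, kidney or gut, such as the glial glutamate carrier Slc1a2, the serotonin carrier Slc6a4 and the kidney and gut carrier Slc6a19. An array cannot show that such a gene was silent, only that its signal was not well above background.

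The comparison of 0h with DMSO addresses what the FGF receptor inhibitor did before induction. Of 42 members 0 were called, where 3.5% of all genes were, and 7 members had an unadjusted p under 0.05. With the replicate block 3 were higher (Slc7a9, Slc1a1 and Slc6a7) and 4 lower (Slc7a7, Slc43a2, Slc1a3 and Slc7a3), against 15% of all genes called. Without DMSO replicate 2, 1 member was called. Of these 7, Slc7a7, Slc43a2 and Slc1a3 were then called higher at 24h against 0h, and Slc7a9, Slc1a1 and Slc6a7 lower. Both comparisons use the same 0h arrays, so opposite signs are not independent, and the comparison of 24h with DMSO, which leaves them out, gives the net difference. It called 3 members higher (Slc38a8, Slc38a9 and Slc38a4) and 5 lower (Slc38a5, Slc6a15, Slc43a1, Slc1a6 and Slc6a8), 19% of members against 11.3% of all genes (6.56% higher and 4.78% lower), and 10 and 9 with the block, against 26% of all genes. The count was 2 without DMSO replicate 1, 5 without DMSO replicate 2, 2 without 24h replicate 1 and 2 with array medians.
For the 6 genes called at 24h against 0h with the sign turned, the changes at 24h against DMSO were not called: 0.80 ± 0.51 for Slc7a7, 0.46 ± 0.29 for Slc43a2, 0.019 ± 0.21 for Slc1a3, -0.30 ± 0.39 for Slc1a1, -0.58 ± 0.32 for Slc6a7, while Slc7a9 was well above background on 1 of 2 DMSO arrays and 0 of 2 at 24h. With the block 3 of them passed, Slc7a7 (adjusted p = 0.027), Slc6a7 (0.0261) and Slc7a9 (0.011). Of the others that passed only with the block, Slc7a5 had 0.71 ± 0.29 (adjusted p = 0.148, against 0.00934 with the replicate block), Slc7a1 0.47 ± 0.23 (adjusted p = 0.248, against 0.0285 with the replicate block) and Slc6a9 0.57 ± 0.31 (adjusted p = 0.286, against 0.0359 with the replicate block). Slc7a4 had 0.45 ± 0.18 (adjusted p = 0.138, against 0.0458 with the replicate block) and Slc6a13 1.25 ± 0.46 (adjusted p = 0.116, against 0.0367 with the replicate block). Slc6a6 had -0.72 ± 0.22 (adjusted p = 0.0576, against 0.0151 with the replicate block) and Slc43a3 -0.44 ± 0.15 (adjusted p = 0.095, against 0.0163 with the replicate block). Slc36a3 had 1.29 ± 0.41 (adjusted p = 0.0708, against 0.0435 with the replicate block). Slc6a13 and Slc36a3 were well above background on 1 of 2 DMSO arrays. Slc6a13 passed the filter only through groups with 4OHT, so a rise against DMSO was the only call open to it.

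From 8h to 24h 4 members rose (Slc38a8, Slc43a1, Slc38a9 and Slc7a4) and 0 fell, 9.52% against 8.81% of all genes (5.22% higher and 3.59% lower), and with the block 7 were higher and 3 lower, against 22.9%. The count was 2 without 24h replicate 1 and 2 with array medians. Slc43a1, Slc38a9 and Slc7a4 were 3 of the 4 members that had fallen at 4h. Over all 8 groups, 15 of 42 members differed by limma's F test, against 22.9% of all genes. That count was 9 without DMSO replicate 1, 9 without 24h replicate 1 and 6 with array medians. In all, 21 members were called in at least 1 comparison (50%, against 29.7% of all tested genes), or 31 with the block (73.8% against 57.9%), and 21 in none without it.

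Genes around the carriers were taken from lists of shared function. For single genes of these lists, and for the markers below, no values with array medians or with arrays left out are given. Of the 38 carrier calls 26 were lost with array medians, so the calls of listed genes are not firmer than those of the carriers. Their counts at 24h against 0h stand beside 23.7% of all tested genes called, 10.7% higher and 13% lower, and 39.5% with the block. Of 18 genes of ATF4 and the amino acid response, 9 rose and 0 fell at 24h against 0h (50%), or 14 and 0 with the block (77.8%), with a median of 1.38 against -0.01 for all tested genes. At 8h 1 was higher (5.56%, against 6.74% of all genes), or 8 with the block (44.4% against 21%), with a median of 0.53. Gadd45a, a growth arrest gene, rose by 2.95 ± 0.33 (adjusted p = 0.000325), and Ddit3 (CHOP), a stress transcription factor, rose by 2.51 ± 0.56 (adjusted p = 0.00906). Fgf21, a secreted stress hormone, was at least 2.88-fold higher, as neither of its 0h arrays was well above background. Its adjusted p of 0.000473 is that of the limma fit to the values as read, not of the bound. Atf4 itself, which is regulated largely at translation, had 0.41 ± 0.32 (adjusted p = 0.424, against 0.0209 with the replicate block) and Asns, which makes asparagine, 0.37 ± 0.18 (adjusted p = 0.167, against 0.011 with the replicate block). Atf4 read 7.42 and 7.05 in DMSO, 7.36 and 7.01 at 0h, 7.34 and 6.997 at 30m, 7.48 and 7.09 at 1h, 7.83 and 7.14 at 2h, 8.07 and 7.41 at 4h, 8.09 and 7.47 at 8h and 7.78 and 7.42 at 24h, with replicate 1 above replicate 2 in every group.

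Of 13 serine, glycine and one-carbon enzymes 0 were called at 24h (5 higher with the block, 38.5%, against 39.5% of all genes called either way), with a median of 0.32. Phgdh, the first enzyme of serine synthesis, had 0.39 ± 0.22 (adjusted p = 0.249, against 0.0291 with the replicate block), and Tdh, the threonine dehydrogenase on which mouse embryonic stem cells are known to depend, -0.10 ± 0.24 (adjusted p = 0.824). Of 20 cytosolic aminoacyl-tRNA synthetases, which charge tRNAs with amino acids, 3 rose and 0 fell (15%, or 6 and 0 with the block, 30%). Of all genes 10.7% were called higher and 23.7% either way, or 39.5% either way with the block. The 3 rose as follows, Wars by 0.71 ± 0.18, Nars by 0.46 ± 0.14 and Farsb by 0.46 ± 0.15. Of 9 methionine and polyamine enzymes 2 rose and 0 fell (22.2%, against 10.7% of all genes higher), Odc1 by 0.59 ± 0.17 and Sms by 0.52 ± 0.14.

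Of 16 enzymes of glutamine, glutamate, aspartate and proline, 1 rose and 3 fell (25%, near the share of all genes). Glud1, glutamate dehydrogenase, rose by 1.28 ± 0.29 (adjusted p = 0.00998) and Ass1, of arginine synthesis, fell by 0.63 ± 0.13 (adjusted p = 0.00717). Of 10 cystine and glutathione genes 1 rose and 2 fell (30%): Ggt1, which splits glutathione outside the cell, rose by 1.32 ± 0.17 (adjusted p = 0.000632), Gpx4, which removes lipid peroxides, fell by 1.33 ± 0.17 (adjusted p = 0.000626) and Gss, glutathione synthetase, fell by 0.76 ± 0.20 (adjusted p = 0.0193). Of 7 genes of branched-chain amino acid breakdown 0 were called (1 higher and 3 lower with the block, 57.1%).

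Of 27 genes of amino acid sensing by mTORC1, 1 rose and 4 fell (18.5%), or 3 and 7 with the block (37%), shares under those of all genes, with a median of -0.24. Sesn1, a sestrin, fell by 1.04 ± 0.33 (adjusted p = 0.0434), Rragb, a Rag GTPase, fell by 0.92 ± 0.23 (adjusted p = 0.0157) and Mlst8, a subunit of the kinase complex, fell by 0.88 ± 0.13 (adjusted p = 0.0011). Of 11 genes of the Myc family and its partners, Myc rose by 3.83 ± 0.60 (adjusted p = 0.00156), Mycl fell by 3.23 ± 0.70 (adjusted p = 0.00811), with 1 of 2 arrays well above background at 24h, and Mycn was at -0.31 ± 0.20 (adjusted p = 0.304).

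**Figure D5:**
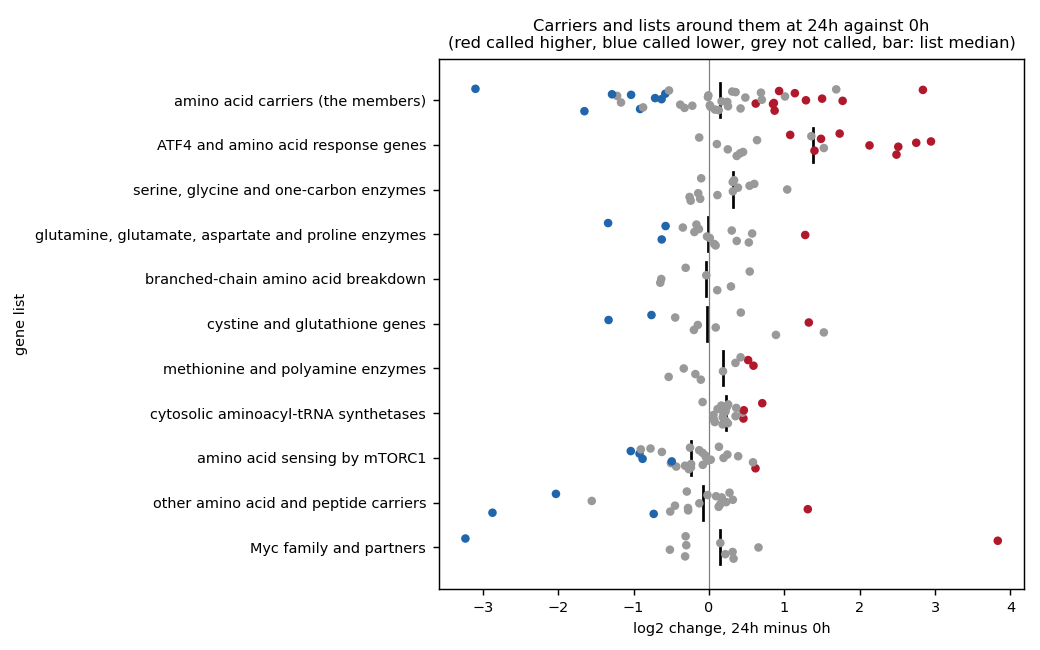
Log2 change at 24h against 0h (x axis) of the tested carriers and of the tested genes in each of 10 lists around them (y axis), each point a gene, red where called higher, blue where called lower and grey where not called, with a black bar at the list median. The ATF4 and amino acid response list has its median at 1.38, and the carriers, with called genes on both sides, at 0.15.

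Cell type markers also moved at 24h against 0h, and their part in the carrier results was not tested. Their counts stand beside 23.7% of all tested genes called, 10.7% higher and 13% lower. Of the 12 stem cell markers 6 fell (Nanog, Klf4, Tfcp2l1, Fgf4, Esrrb and Zfp42) and 1 rose (Utf1), and their summed signal, relative to the 75th percentile, was 693.5 to 764.1 on the 24h arrays against 935.9 to 981.5 at 0h. Of 7 tested trophoblast markers 3 rose (Hand1, Cdx2 and Krt7), with a summed signal over the 9 of 16.01 to 16.61 against 18.66 to 35.78, and Elf5 was above background on 0 arrays. Of 9 tested primitive endoderm markers 2 rose (Gata6 and Pdgfra) and 1 fell (Lama1), with a summed signal over the 10 of 11.6 to 13.19 against 31.09 to 31.7. The sums add linear signals and so follow their brightest genes, not the list as a whole. Among the primitive endoderm markers Lama1 reached 5.18 in log2 and Gata6, the next, 1.49. Among the trophoblast markers Tfap2c reached 5.02 and Ascl2, the next, 2.65. Of 5 tested neural markers 3 fell, and of 5 mesoderm markers 1 rose (Mesp1), with Mixl1 above background on 0 arrays. Mesp1, Cdx2 and Pdgfra were well above background on 0 of the DMSO and 0h arrays, and on 4, 7 and 2 of all 16. They passed the filter only through stimulated groups, so a rise against 0h was the only call open to them. Of 4 tested fibroblast markers 0 were called, and their summed signal over the 6 stayed under 1 on every array of these groups, at 0.372 to 0.476 at 24h against 0.37 to 0.383 at 0h. In a bulk sample a change in the share of cells of a type and a change in the RNA per cell cannot be told apart.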

How the data were processed

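The 16 arrays of 8 groups were deposited as scanner files and as a value table. Per the file headers, the scanner files hold spot intensities in 1 colour from Agilent Feature Extraction 11.0.1.1, with probes annotated on mm9; the deposited processed intensity had been corrected for background by that software. Each value table column equals the processed intensity of 1 scanner file (tolerance 0.6%), and its headings set the sample of each array. The labels name Cy5 as dye, the files a green channel. Control and outlier spots were left out, and log2 of the processed intensity minus the array's 75th percentile was used. Probes were named by transcript accession through RefSeq (GRCm38.p6, names only; 27656 of 55681 probes matched 1 gene). Of several probes for a gene the one with the highest mean over the arrays was used (14 members had more than 1), and the gene was tested if that probe cleared the background on both replicates of some group.

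Limma 3.58.1 (R 4.3.3) fitted 8 group means to all 16 arrays, with 8 residual degrees of freedom, two-sided moderated tests and Benjamini-Hochberg adjustment within each of 9 comparisons. Same-numbered arrays deviated together (correlations of 0.328 and up, median 0.527, and the number is the slide), so that the replicate block is printed where it changes a call. Fold bounds set a dim group at the lowest signal well above background. The analysis was tested on simulated data with independent noise on each array. That setting has no slide effect, so it cannot show how the fit behaves under the one seen here.

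Members and lists were chosen with earlier results of these data known. Every called member may be named. Values of 1 member and of 1 listed gene are not reported here. All arrays are printed for the 12 called members with the largest range of group means and for 11 set carriers. Listed genes were named as the 3 largest called changes at 24h, plus Atf4, Asns, Tdh, Phgdh, Myc and Mycn. Alternatives were the scaling, background, filter, probe, block, identities, arrays fitted and arrays left out; normexp (offset 50) used the median signal, as the mean signal was not used here.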

Additional observations from a re-analysis of the deposited data

How the results depend on the processing

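Counts of called members moved by over 1.5 times under the settings that follow. With samples as attached to the scanner files the count was 1 for 2h against 0h, 0 for 4h against 0h, 0 for 8h against 0h, 1 for 24h against 0h, 0 for 24h against 8h, 0 for 24h against DMSO and 2 for the F test. With array medians it was 0 for 4h against 0h, 1 for 8h against 0h, 7 for 24h against 0h, 2 for 24h against 8h, 2 for 24h against DMSO and 6 for the F test. With the replicate block, which pairs the arrays of a slide, it was 7 for 0h against DMSO, 9 for 4h against 0h, 16 for 8h against 0h, 10 for 24h against 8h, 19 for 24h against DMSO and 27 for the F test, and the block ended 0 calls of the members named. A fit on the 2 groups alone gave 0 for 4h against 0h, 0 for 8h against 0h, 5 for 24h against 0h, 0 for 24h against 8h and 0 for 24h against DMSO. Requiring at least a 2-fold difference gave 1 for 4h against 0h, 2 for 8h against 0h, 9 for 24h against 0h, 2 for 24h against 8h and 4 for 24h against DMSO. The other settings that moved a count by over 1.5 times were normexp background correction (2 for 0h against DMSO, 1 for 4h against 0h and 7 for 8h against 0h), quantile normalization (1 for 0h against DMSO and 2 for 4h against 0h) and the filter for signal on all 16 arrays (2 for 0h against DMSO). Leaving out 1 array at a time gave 0 to 1 for 0h against DMSO, 1 to 2 for 4h against 0h, 1 to 7 for 8h against 0h, 8 to 18 for 24h against 0h, 2 to 6 for 24h against 8h, 2 to 9 for 24h against DMSO and 9 to 14 for the F test. The cause was not tested, apart from the smaller number of arrays or genes that some of these settings use.

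With samples as attached to the scanner files, changes that took the other sign at 0h against DMSO were Slc7a3 0.073. Under the same record those at 4h against 0h were Slc43a1 0.028, Slc7a1 -0.38, Slc7a3 -0.78, Slc7a4 0.30, Slc7a5 -0.42, Slc7a7 -0.89. Under the same record those at 8h against 0h were Slc36a2 0.64, Slc38a2 -0.19, Slc3a2 -0.39, Slc6a7 0.28, Slc6a9 -0.12, Slc7a1 -0.35, Slc7a3 -0.97, Slc7a4 0.46, Slc7a5 -0.37, Slc7a7 -0.24, Slc7a9 1.33. Under the same record those at 24h against 0h were Slc1a1 0.058, Slc3a2 -0.27, Slc43a1 0.31, Slc6a7 0.11, Slc7a1 -0.28, Slc7a5 -0.24, Slc7a6 0.12, Slc7a7 -0.10. Under the same record those at 24h against DMSO were Slc6a7 0.24, Slc6a9 -0.039, Slc7a1 -0.076, Slc7a7 -0.53, Slc7a9 0.67. Slc7a9 at 8h against 0h, called only with the block, ranged from -2.50 to 0.11 with 1 array left out, the latter without 8h replicate 1. No other alternative that was run turned the sign of a member value that was called or was called with the block. Of the 38 calls of single members over the 9 comparisons, 12 passed with each array left out in turn, 26 were lost with array medians, 6 with normexp, 5 with no filter on dim probes, 3 with quantile normalization, 1 with the mean of all probes and 38 with the other record of identities. Array medians moved the median of all tested genes to -0.10 at 24h against 0h, from -0.01.

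With 2 arrays in a group, a value that did not pass does not show that a carrier was level. Members near the background have only bounds. A probe reads 1 stretch of a transcript, and mRNA is not transport.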

Other observations

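Of 20 tested carriers of amino acids and peptides outside the families above, 1 rose and 3 fell at 24h against 0h (20%), a share under the 23.7% of all tested genes that were called. Slc15a1, the intestinal carrier of small peptides, was at least 2-fold lower, with arrays at -5.92 and -6.55 in DMSO, -3.84 and -3.57 at 0h, -4.14 and -3.62 at 8h and -6.38 and -6.79 at 24h. Its DMSO and 24h arrays were not well above background, so those readings give only upper bounds. Its adjusted p of 0.000468 is that of the fit to the values as read, not of the fold bound. Slc32a1, which loads GABA and glycine into vesicles, fell by 2.03 ± 0.30 (adjusted p = 0.00126), with arrays at -2.44 and -1.93 in DMSO, -0.24 and 0.24 at 0h, -2.49 and -1.53 at 8h and -1.93 and -2.13 at 24h. Ctns, which exports cystine from lysosomes, fell by 0.73 ± 0.14 (adjusted p = 0.00424). Slc16a10, a carrier of aromatic amino acids, rose by 1.31 ± 0.35 (adjusted p = 0.0208), with arrays at -3.70 and -3.53 in DMSO, -4.07 and -4.09 at 0h, -2.86 and -4.01 at 8h and -2.66 and -2.88 at 24h. Adjusted p-values are from the limma fit over all tested genes, and no values with array medians or with arrays left out are given for these genes.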
